A study of Mus musculus with 2 samples.

Results

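The miR-23/27/24 microRNAs come from a pair of small gene clusters that arose by duplication, and 5 of their genes were measured here out of 1973 microRNA genes in all. On chromosome 8 the members were Mir23a, Mir27a and Mir24-2, and on chromosome 13 they were Mir23b and Mir27b. They were chosen by gene name, as the rows of both count tables whose identifiers carry these names in GENCODE release M21. The libraries form a single group of lung tissue from healthy mouse embryos at 16.5 days, strain B6NCrl, with both sexes pooled and no other genotype or treatment. There were 2 biological replicates. Lungs of 41 embryos were pooled for replicate 2, while for replicate 1 the labels name a pool without its size. Nothing in the labels says that the pools differ by litter or day. Small RNA under 30 bases was sequenced from whole lung, so a level mixes all cell types, and fewer cells of a type cannot be told apart from less RNA per cell. With a single group, the comparisons are between members of the clusters and between the 2 libraries.

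A microRNA is cut from a hairpin in a longer primary transcript, and neighbouring hairpins can share one such transcript. The mature strand guides Argonaute proteins to messenger RNAs that pair with its seed, the bases from position 2 to position 8, and lowers the output of those messages. The miR-23/27/24 clusters are known for their activity in endothelial cells, where they take part in vessel growth, and in lymphocytes. At this age the lung is branching and its vessels are spreading through the mesenchyme.

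The mature sequences, credited to RefSeq on build GRCm38.p6, are shown because they decide which reads can be told apart. All 5 members matched a hairpin in that table. The 3′ arms are printed 5′ to 3′ with the seed in capitals.
miR-23a-3p: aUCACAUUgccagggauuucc
miR-27a-3p: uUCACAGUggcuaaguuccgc
miR-27b-3p: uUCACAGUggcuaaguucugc
miR-24-3p: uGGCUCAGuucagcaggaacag
The table holds no entry named miR-23b-3p. Counted from 1 at the 5′ end, miR-27a-3p and miR-27b-3p differed by C19U alone, and their seeds were identical. The seed of miR-23a-3p was close to that of miR-27a-3p: over the first 8 bases these differed by A1U and U7G. The seed of miR-24-3p was unrelated to both.

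The 5′ arms of the same hairpins differed far more between the clusters, again with the seed in capitals.
miR-23a-5p: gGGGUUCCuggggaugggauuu
miR-23b-5p: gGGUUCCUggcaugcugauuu
miR-27a-5p: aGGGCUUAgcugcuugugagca
miR-27b-5p: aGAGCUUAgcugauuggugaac
miR-24-2-5p: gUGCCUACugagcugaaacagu
miR-24-1-5p: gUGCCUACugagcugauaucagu
The best match of miR-27a-5p in the Mir27b hairpin had 8 substitutions and that of miR-23a-5p in the Mir23b hairpin had 7. The 5′ arms of both miR-24 genes shared their seed.

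Whole hairpins show where the paralogues are identical, with the longest stretch shared by each pair in capitals.
Mir23a: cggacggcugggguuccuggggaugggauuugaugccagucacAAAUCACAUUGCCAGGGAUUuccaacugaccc
Mir23b: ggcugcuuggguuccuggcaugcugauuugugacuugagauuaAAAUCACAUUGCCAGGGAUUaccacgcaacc
Mir27a: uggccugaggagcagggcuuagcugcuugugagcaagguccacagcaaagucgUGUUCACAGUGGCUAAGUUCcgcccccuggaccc
Mir27b: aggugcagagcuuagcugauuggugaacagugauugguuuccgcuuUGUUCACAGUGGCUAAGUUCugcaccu
Mir24-2: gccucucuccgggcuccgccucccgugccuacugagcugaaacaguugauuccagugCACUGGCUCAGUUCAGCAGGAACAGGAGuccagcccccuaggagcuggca
Mir24-1: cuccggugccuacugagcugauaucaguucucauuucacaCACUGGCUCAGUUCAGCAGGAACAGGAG
The shared stretch was 20 bases in the miR-23 pair, 20 in the miR-27 pair and 28 in the miR-24 pair. Identity over the whole hairpin was taken as identical bases over all aligned columns, gaps included. It was 73.8% for Mir23a and Mir23b (59 of 80), 61.1% for Mir27a and Mir27b (58 of 95) and 54.5% for Mir24-2 and Mir24-1 (60 of 110). The annotated hairpins of Mir24-2 and Mir24-1 are 107 and 68 bases long, so gaps alone lower their value. The order of these percentages is therefore no ranking of how alike the pairs are.

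These stretches set how reads of the 3′ arms can be assigned. The best match of miR-23a-3p in the Mir23b hairpin differed by U19A alone. Among the 1005 hairpins of the table, a read that starts at the first base of miR-23a-3p, miR-27a-3p or miR-27b-3p belongs to a single hairpin only if it is at least 19 bases long. The whole of miR-24-3p lies in both Mir24-2 and Mir24-1, so no length makes it unique. Its 5′ arms are unique from 17 bases on. Reads that matched several loci stand on a line of their own, 29.97% of the reads in the table of replicate 1 and 31.8% in that of replicate 2. How many of them carry miR-24-3p was not tested, and the level of Mir24-2 below is that of the reads counted to its own locus.

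On build mm10, Mir23a (ENSMUSG00000065611.1) lies on chromosome 8 at 84208518 to 84208592, Mir27a (ENSMUSG00000065444.1) at 84208672 to 84208758 and Mir24-2 (ENSMUSG00000065541.1) at 84208815 to 84208921, all on the plus strand. Their hairpins are 79 and 56 bases apart. Mir23a and Mir27a overlap no other annotated gene, whereas the last 2 bases of Mir24-2 overlap an exon of the long non-coding RNA Gm26532, and Mir3074-2 is annotated on its opposite strand. Mir23b (ENSMUSG00000065599.1) lies on chromosome 13 at 63300484 to 63300557 and Mir27b (ENSMUSG00000065475.1) at 63300712 to 63300784, also on the plus strand and 154 bases apart. Both lie within the protein-coding gene 2010111I01Rik, on the same strand, where Mir23b is intronic and Mir27b overlaps an annotated exon. Fancc, on the opposite strand, spans both in an intron. Mir24-1 follows 423 bases after Mir27b, at 63301208 to 63301275. Its M21 identifier matched no row of the tables, 79 of whose identifiers have no M21 name, so a row of its own may be among those. It is not analysed here as a gene.

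**Figure D1:**
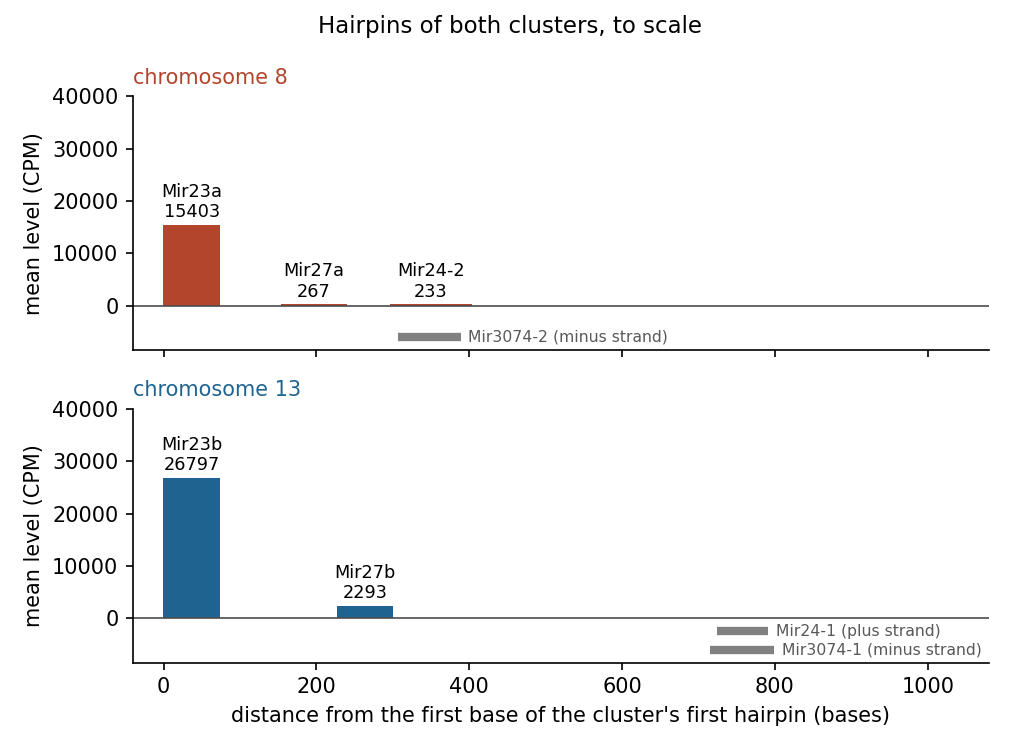
Hairpins of the chromosome 8 cluster (top) and the chromosome 13 cluster (bottom), drawn to scale by distance in bases from the first base of the first hairpin, with bar height giving the mean level of 2 libraries in CPM, counts per 1000000 gene counts, on axes that start at 0. Grey lines mark hairpins with no bar, Mir3074-2, Mir24-1 and Mir3074-1. The first hairpin of each cluster is the highest, at 15403 CPM for Mir23a and 26797 CPM for Mir23b.

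All 5 members were detected, meaning at least 10 counts in each library, as were 347 genes in all. Together they held 4.28% of gene counts in replicate 1 and 4.72% in replicate 2 (mean 4.50% ± 0.307, SD, n = 2). Levels are given in CPM, from 6376715 gene counts in replicate 1 and 4123748 in replicate 2. A count stands for a small RNA read, so levels were not divided by hairpin length. The 95% intervals that follow are exact and cover counting error only.

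The miR-23 genes carried most of the signal. Mir23b had 164866 counts in replicate 1 and 114393 in replicate 2, or 25854 CPM (interval 25731 to 25978) and 27740 CPM (27582 to 27899). It ranked 10 and 9 among all genes. Mir23a had 91215 and 68047 counts, or 14304 CPM (14212 to 14397) and 16501 CPM (16379 to 16625), at ranks 18 and 16. The ranges of these paralogues did not overlap, and Mir23b was above Mir23a in both libraries. Together they made up 93.8% ± 0.0179 of the counts of the 5 members (SD, n = 2).

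The miR-27 genes were lower and further apart. Mir27b had 13967 and 9883 counts, or 2190 CPM (2154 to 2227) in replicate 1 and 2397 CPM (2350 to 2444) in replicate 2, at ranks 65 and 64. Mir27a had 1569 and 1189 counts, or 246 CPM (234 to 259) and 288 CPM (272 to 305), at ranks 154 and 148. Mir27b stood well above Mir27a in each library, with no overlap. Mir27a was nearer to the median of the detected genes, 180 CPM, than to its neighbour Mir23a.

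By reads counted to its own locus, Mir24-2 was the lowest member. It had 1453 counts in replicate 1 and 979 in replicate 2, or 228 CPM (216 to 240) and 237 CPM (223 to 253), at rank 158 in both. The order Mir23b, Mir23a, Mir27b, Mir27a, Mir24-2 was the same in both libraries. The means over the libraries were 26797 CPM ± 1333 for Mir23b, 15403 ± 1553 for Mir23a, 2293 ± 146 for Mir27b, 267 ± 29.9 for Mir27a and 233 ± 6.75 for Mir24-2 (SD, n = 2). The last neighbours in this order, Mir27a and Mir24-2, were close: the lower Mir27a library (246 CPM) lay only just above the higher Mir24-2 library (237 CPM), and their means differed by little more than the SD of Mir27a.

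**Figure D2:**
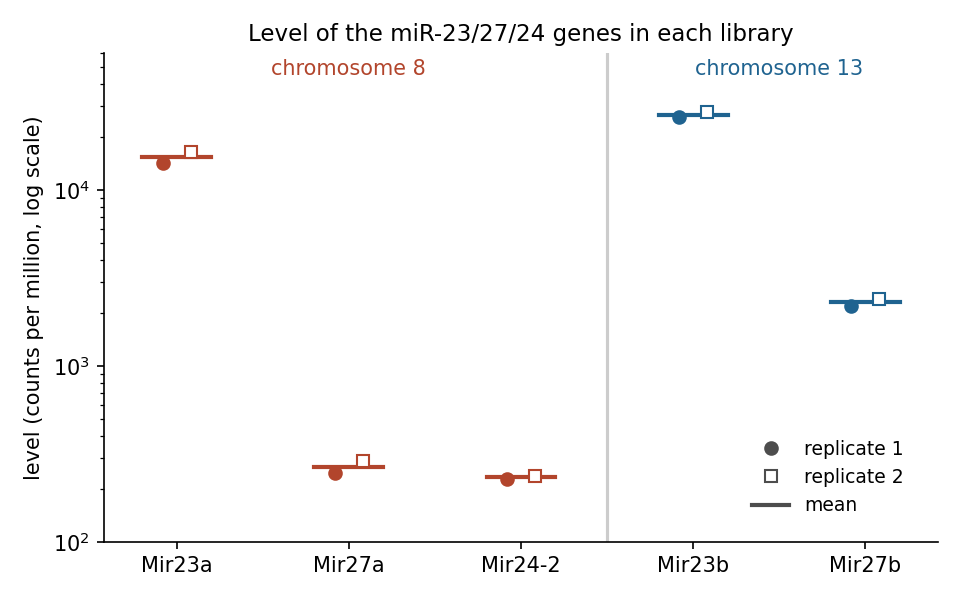
Level of each member in CPM on a log axis, with replicate 1 as filled circles, replicate 2 as open squares, horizontal lines for the means and error bars for exact 95% counting intervals, most of them smaller than the points. Mir23a and Mir23b lie highest, Mir27b lies near 2293, and Mir27a and Mir24-2 lie close together at the bottom.

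**Figure D3:**
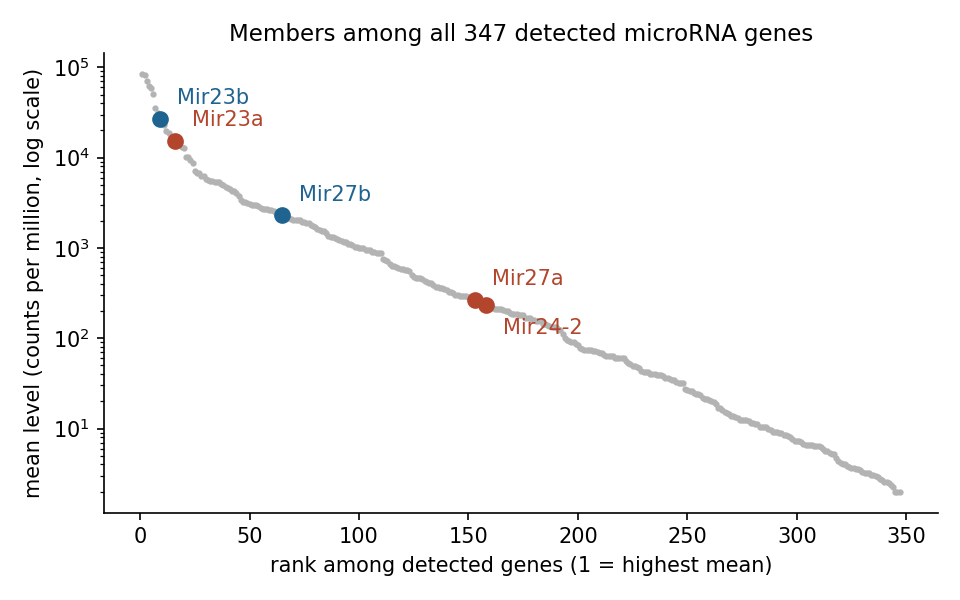
Mean level in CPM (log axis) of the 347 detected microRNA genes against their rank, in grey, with the chromosome 8 members in red and the chromosome 13 members in blue. The miR-23 genes are at ranks 9 and 16 of the mean, Mir27b at 65, Mir27a at 153 and Mir24-2 at 158.

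The genes nearest in level to each member over both libraries give a sense of scale. They were taken by the smallest distance of log2 CPM over 2 libraries, so they describe level alone. Mir23b was nearest to Mir130a (26399 and 25081 CPM) and Mir23a to Mir99b (14373 and 16175 CPM). Mir27b was nearest to Mir497b (2046 and 2301 CPM), Mir27a to Mir146 (243 and 286 CPM) and Mir24-2 to Mir132 (222 and 239 CPM). In replicate 1 Mir130a was above Mir23b, and in replicate 2 it was below.

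The first comparison set the paralogues of the 2 chromosomes against each other, member by member. The chromosome 13 gene was the higher of each pair, by a small margin for miR-23 and a large one for miR-27. Mir23b was 1.81-fold above Mir23a in replicate 1 (95% interval 1.79 to 1.82) and 1.68-fold in replicate 2 (1.67 to 1.70). Mir27b was 8.90-fold above Mir27a in replicate 1 (8.45 to 9.38) and 8.31-fold in replicate 2 (7.83 to 8.83). On the log2 scale the mean difference was 0.80 ± 0.07 for miR-23 and 3.10 ± 0.07 for miR-27 (SD, n = 2). The gap between these differences was many times the SD of either.

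Seen as shares, Mir23b gave 64.4% and 62.7% of the reads counted to the miR-23 genes, and Mir27b gave 89.9% and 89.3% of those counted to the miR-27 genes. Over all 5 members the chromosome 13 genes held 65.5% of the counts in replicate 1 (exact interval 65.3 to 65.7) and 63.9% in replicate 2 (63.7 to 64.1), a mean of 64.7% ± 1.13 (SD, n = 2). The chromosome 13 genes summed to 28045 and 30137 CPM, and those of chromosome 8 to 14778 and 17027 CPM. The cluster sums did not overlap. The chromosome 13 sum lacks Mir24-1, so only the miR-23 and miR-27 genes are matched between the clusters. Over those alone the chromosome 13 share was 65.8% and 64.2%.

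The second comparison was within each cluster, whose genes lie so close that they can share a primary transcript. Both clusters ran from a high miR-23 gene to a lower miR-27 gene, but the step was far steeper on chromosome 8. Mir23a was 58.1-fold above Mir27a in replicate 1 (55.3 to 61.1) and 57.2-fold in replicate 2 (54.0 to 60.7). Mir23b was 11.8-fold above Mir27b in replicate 1 (11.6 to 12.0) and 11.6-fold in replicate 2 (11.3 to 11.8). The chromosome 8 fold was 4.93 times the chromosome 13 fold in replicate 1 (4.67 to 5.19) and 4.94 times in replicate 2 (4.65 to 5.25). These values repeated closely between the libraries.

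Further along chromosome 8 the level of counted reads hardly changed between Mir27a and Mir24-2. A whole mature arm of Mir24-2 also lies in its chromosome 13 paralogue, and reads that matched several loci are in no gene count. How many of those reads carry this arm was not tested. The folds and cluster shares of chromosome 8 that involve Mir24-2 thus hold for counted reads alone. Mir27a was 1.08-fold above Mir24-2 in replicate 1 (1.00 to 1.16) and 1.21-fold in replicate 2 (1.12 to 1.32), with a mean log2 difference of 0.20 ± 0.12 (SD, n = 2). Mir23a was 62.8-fold above Mir24-2 in replicate 1 (59.6 to 66.2) and 69.5-fold in replicate 2 (65.3 to 74.1). Mir23a thus held 96.9% ± 0.0843 of the counts of its cluster, Mir27a 1.68% ± 0.0201 and Mir24-2 1.47% ± 0.104. On chromosome 13, Mir23b held 92.1% ± 0.101 of the counts of its cluster and Mir27b 7.88% ± 0.101 (SD, n = 2 for each).

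Among all detected microRNA genes, 109 pairs are neighbours on one strand within 10 kb, and their mean levels differed by a median of 8.89-fold. The fold between Mir23a and Mir27a was exceeded by 21 of these pairs and that between Mir23b and Mir27b by 49. The fold between Mir27a and Mir24-2 was exceeded by 107, so by counted reads this pair was among the most alike. Its position may depend on the reads that matched several loci, which are in no gene count. These positions describe the pairs and are not a test.

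**Figure D4:**
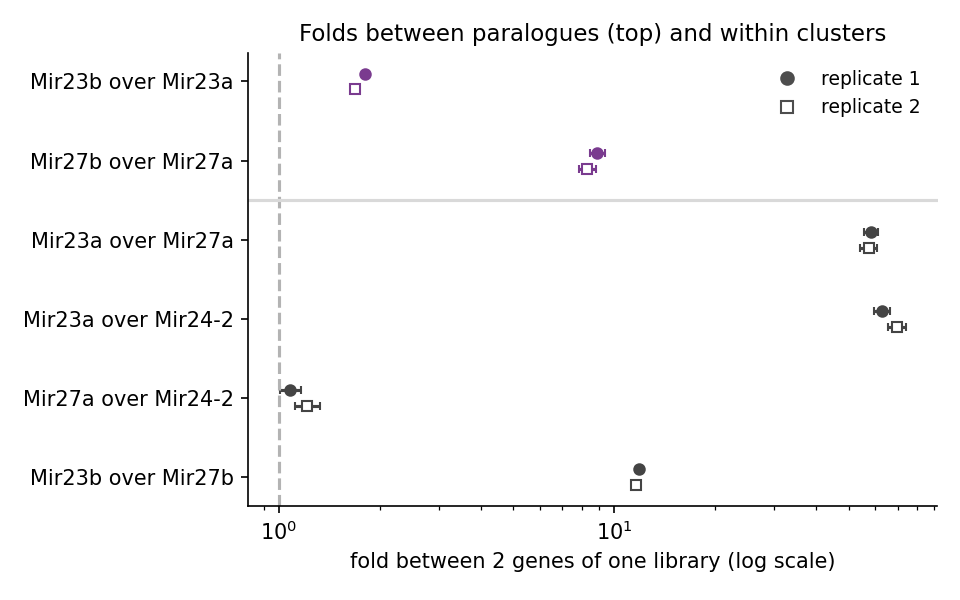
Fold between members within each library on a log axis, for paralogues (purple, top) and for genes of one cluster (dark grey), with replicate 1 as filled circles, replicate 2 as open squares and exact 95% counting intervals as bars. The dashed line marks equal levels. Mir27b over Mir27a lies near 8.60-fold, Mir23a over Mir27a near 57.7-fold, and Mir27a over Mir24-2 next to the line.

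The place of miR-24 on chromosome 13 was seen only through Mir3074-1 (ENSMUSG00000092741.1), a microRNA gene on the minus strand at 63301199 to 63301283 that covers the whole Mir24-1 hairpin. Mir3074-1 had 779 and 599 counts, of which 462 and 366 were on its own strand and 317 and 233 on the opposite strand, which is that of Mir24-1. The opposite strand held 40.7% and 38.9% of its counts, against 2.64% and 2.71% over all microRNA genes. The counts on the strand of Mir24-1 came to 49.7 CPM (44.4 to 55.5) in replicate 1 and 56.5 CPM (49.5 to 64.2) in replicate 2. The sense counts of Mir24-2 were 4.58-fold above this in replicate 1 (4.06 to 5.19) and 4.19-fold in replicate 2 (3.63 to 4.85). By these counts the chromosome 8 locus was the higher for miR-24, the reverse of the order for miR-23 and miR-27. This sets the own row of Mir24-2 against opposite-strand counts in the row of another gene, and any row of Mir24-1 among the 79 unnamed identifiers is not in it. Reads that matched several loci stand on a line of their own and are in no gene count. How many of them carry the shared 3′ arm was not tested, so these counts are no full measure of Mir24-1 or Mir24-2.

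Strand was otherwise clean for the members. Mir23a, Mir27a and Mir23b had 0 counts on the opposite strand in both libraries, a count that allows up to 0.470 CPM in replicate 1 and 0.727 CPM in replicate 2. Mir24-2 had 3 and Mir27b 1 in replicate 2, and neither had any in replicate 1.

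The third comparison was between the libraries. All 5 members were higher in replicate 2, and the differences were small. Mir23a was 1.15-fold higher in replicate 2 (95% interval 1.14 to 1.17), Mir27a 1.17-fold (1.09 to 1.26), Mir27b 1.09-fold (1.07 to 1.12), Mir23b 1.07-fold (1.06 to 1.08) and Mir24-2 1.04-fold (0.960 to 1.13). By a two-sided exact binomial test with Benjamini-Hochberg adjustment over all detected genes, 4 of the 5 members passed at 0.05, all higher in replicate 2. The background was 163 of 347 genes, or 47.0%, with 30.5% higher in replicate 2 and 16.4% higher in replicate 1. This split moved with the scaling: 106 genes were higher in replicate 2 and 57 in replicate 1 on total gene counts, 84 and 74 with TMM sizes, and 75 and 78 with DESeq2 size factors. The same 4 members passed, higher in replicate 2, under each of these scalings. The adjusted p was 5.70e-172 for Mir23a, 4.02e-73 for Mir23b, 4.41e-11 for Mir27b and 0.000136 for Mir27a in these exact tests. Mir24-2 did not pass (exact test, adjusted p = 0.453), and its interval still allows a difference of the size seen in Mir23b.

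Such p-values weigh the reads of these 2 libraries against counting error and say nothing of the spread between lungs. The median gene differed by 1.12-fold between the libraries in either direction, and the median member by 1.09-fold. When the spread of all genes between the libraries was taken as the error, as a common dispersion in the exact test of edgeR, 5 of 347 genes (1.44%) and 0 of 5 members passed. At an unadjusted p under 0.05 there were 13 genes and again no member. The dispersion comes from the very difference it is used to test.

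**Figure D5:**
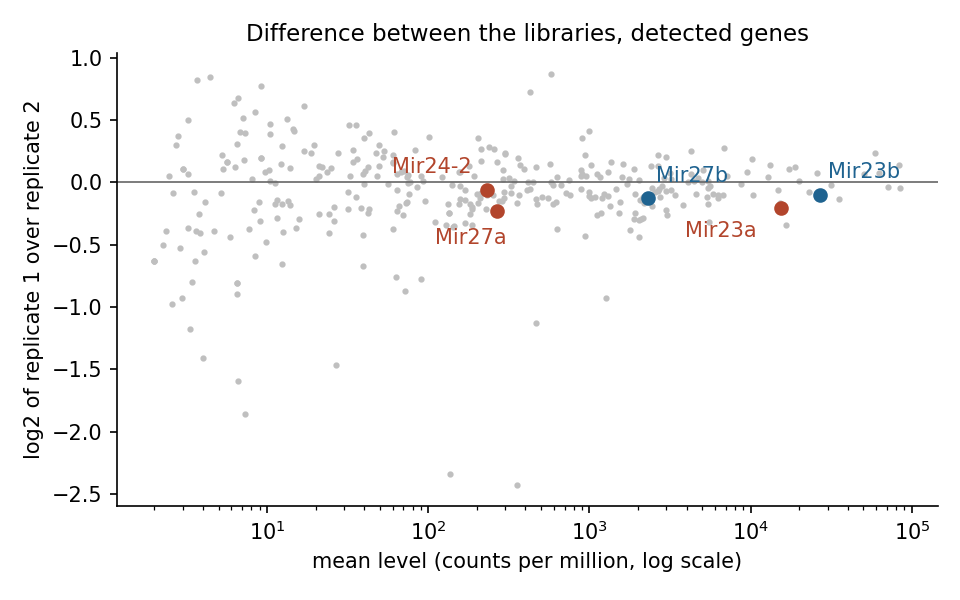
Log2 of replicate 1 over replicate 2 against the mean level in CPM (log axis) for the 347 detected genes, with the chromosome 8 members in red and the chromosome 13 members in blue. All members lie just below the line of no difference, from -0.06 for Mir24-2 to -0.23 for Mir27a, inside the cloud of other genes.

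A ratio of members within a library does not depend on how the libraries are scaled. For each of 6 pairs the ratio was compared between the libraries by a two-sided Fisher's exact test with Benjamini-Hochberg adjustment over the 6. The ratio of Mir23b to Mir23a was 1.08 times higher in replicate 1 (Woolf interval 1.06 to 1.09, adjusted p = 2.99e-29 by Fisher's exact test). The ratio of Mir23a to Mir24-2 was 1.11 times higher in replicate 2 (1.02 to 1.20, adjusted p = 0.0444 by the exact test). The other 4 ratios did not pass. For Mir27b to Mir27a the replicate 1 ratio was 1.07 times that of replicate 2 (0.989 to 1.16), for Mir23a to Mir27a 1.02 times (0.941 to 1.10), for Mir23b to Mir27b 1.02 times (0.993 to 1.05) and for Mir27a to Mir24-2 0.889 times (0.796 to 0.993). The adjusted p of these 4 by Fisher's exact test was 0.141, 0.698, 0.184 and 0.0790 in that order. Each fold between paralogues and within clusters had the same direction in both libraries, and the ratios above give how far its size moved. The fold of Mir27a over Mir24-2 moved the most, from 1.08 in replicate 1, with an interval from 1.00, to 1.21 in replicate 2.

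MicroRNAs listed for parts of the tissue were present in both libraries, and their calls are given here by the exact binomial test on total gene counts. The vessel genes measured were Mir126a, Mir221, Mir222, Mir143, Mir145a, Mir99a, Mir100, Mir10a, Mir17, Mir18, Mir20a and Mir92-1. Mir126a averaged 83199 CPM, Mir143 71247, Mir99a 35435 and Mir17 18856. How particular each is to vessels was not tested, so the share of this list is no measure of vessel cells. Of the microRNAs listed for epithelium, 7 of 7 were detected and held 4.98% and 5.52% of gene counts in replicates 1 and 2, with 5 higher in replicate 2 and 1 higher in replicate 1. Of those listed for vessels, all 12 that were measured were detected and held 25.1% and 24.7%, with 6 higher in replicate 2 and 4 in replicate 1. With DESeq2 size factors these tallies became 3 and 2 for epithelium and 4 and 5 for vessels. The median log2 ratio of replicate 1 over replicate 2 was -0.06 for either list, against -0.13 for the members and -0.05 for all detected genes. The blood list (4 of 4 measured) held 0.287% and 0.264%, with 2 genes higher in each library. Over all detected genes the same test called 47.0%, with 30.5% higher in replicate 2 and 16.4% higher in replicate 1. With edgeR's exact test no gene of the epithelium, vessel or blood list passed, against 1.44% of all detected genes.

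The striated muscle list held 0.0830% and 0.0968% of gene counts. Of its 5 measured genes, Mir1a-1, Mir133a-1 and Mir133a-2 were at 0 in both libraries. Reads that matched several loci are in no gene count, so a 0 here need not mean that the microRNA was absent. Whether reads of these genes matched several loci was not tested. The other genes, Mir206 of skeletal muscle and Mir208a of heart, were detected, and their means lay above that of Mir27a. Mir206 had 294 CPM in replicate 1 and 643 CPM in replicate 2, and Mir208a had 536 and 324 CPM, so they moved in opposite directions. Mir122 of liver held 0.0112% in replicate 1 and 0.0601% in replicate 2. On total gene counts, 5 epithelial markers, 6 vessel genes, 2 blood genes, Mir206 and Mir122 passed as higher in replicate 2. Passing as higher in replicate 1 were 1 epithelial marker, 4 vessel genes, 2 blood genes and Mir208a. With edgeR's exact test Mir206 and Mir122 kept their calls and Mir208a did not. The part of any of these in the difference of the members was not tested.

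The miR-128 genes carry a seed related to that of miR-27 by a shift. The seed of miR-128-3p is found in miR-27a-3p one base further on, at bases 3 to 9, and its first 8 bases match there.
miR-128-3p: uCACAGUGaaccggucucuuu
Mir128-1 had 66.6 CPM in replicate 1 and 114 CPM in replicate 2, and Mir128-2 had 14.3 and 39.5 CPM. Both lay below every member in each library. Both were also higher in replicate 2, by 1.71-fold (1.50 to 1.96) and 2.77-fold (2.13 to 3.62), with adjusted p of 6.50e-15 and 7.59e-15 by the exact binomial test. With edgeR's exact test the adjusted p was 0.638 for Mir128-1, which ended its call, and 0.00892 for Mir128-2, which kept it. The whole of miR-128-3p lies in both hairpins, and reads that matched several loci are outside these counts. How many of those carry miR-128-3p was not tested.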

How the data were processed

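Small RNA of embryonic mouse lung was sequenced in 2 libraries. The deposited values are raw read counts per microRNA gene in tables without a header. The README notes deposited beside them name assembly mm10, annotation M4 and an alignment as input. Which aligner and counter made them is not given in the sources used here. By the values, the first count column equals the sum of the sense and opposite-strand columns in all 1973 genes, and it was used. The 4 summary lines stayed out of totals. Reads counted to genes were 49.6% and 48.8% of each table. Nothing says whether the pools were sequenced together.

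CPM was computed per 1000000 gene counts. Symbols come from GENCODE M21 on mm10, which matched 1894 identifiers. Genes with at least 10 counts in each library were tested. Ratios carry exact Clopper-Pearson intervals at 95%, and ratios of ratios Woolf intervals. A count of 0 is taken to allow 3 counts. No molecular identifiers are described, so reads may repeat a molecule, and intervals and floors cover counting error only. edgeR 4.0.16 gave TMM factors and a common dispersion from an intercept-only fit, and DESeq2 1.42.0 gave size factors (R 4.3.3, Python 3.11.15, scipy 1.17.1). The scripts were tested on simulated counts.

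Named genes are the members, Mir24-1 and the miR-3074 genes beside them, the nearest gene in level to each, the listed markers and the miR-128 genes. The members and lists were chosen with earlier results of these data known. Alternatives covered the count column, scaling, denominator, count minimum, test, averaging and each replicate.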

Additional observations from a re-analysis of the deposited data

Results flagged for a closer look

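Counts on the strand opposite to Mir3074-1, the strand of Mir24-1, lie outside the members' own counts and were above the 3 counts that a count of 0 allows. They numbered 317 and 233 and averaged 53.1 CPM ± 4.80 (SD, n = 2). Which small RNA they carry was not tested.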

How the results depend on the processing

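The folds between paralogues and within clusters, the share of chromosome 13 and the ratios tested between the libraries kept their direction and their side of 0.05 with the sense-strand column. Leaving out a replicate leaves the single value of the other library, given in the report, and so tests little. Summing the counts of both libraries left the paralogue folds within 1 SD as well. The 4 calls between the libraries held with TMM sizes, DESeq2 size factors, every count minimum and the sense-strand column, all higher in replicate 2. Of the alternatives run, only edgeR's exact test moved the count of genes past the threshold by more than 1.5 times, to 5 from 163, and ended all 4. Scaled to all reads in the table, the levels fell to 13170 for Mir23b, 7569 for Mir23a, 1127 for Mir27b, 131.3 for Mir27a and 114.4 for Mir24-2, since that denominator is larger. The alternative that adds Mir24-1 was not run, as it matched no row. Adding the plus-strand counts at Mir3074-1 instead, chosen after seeing the data, gave a chromosome 13 share of 64.7%. No paired analysis was possible because there is a single group.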

Other observations

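Other microRNA paralogues give a rough scale for the folds between the clusters. Among 295 detected genes with a hairpin in the sequence table, 33 pairs hold an arm of one gene in the hairpin of the other with exactly 1 substitution. Their levels differed by a median of 14.6-fold, from 1.05-fold for Mirlet7a-2 and Mirlet7c-2 to 6900-fold for Mir3962 and Mirlet7g. Mir23a and Mir23b, at 1.74-fold, had a smaller difference than all but 6 pairs, and Mir27a and Mir27b, at 8.60-fold, than all but 14. Of pairs named after their values were seen, Mir30a and Mir30e differed by 1.35-fold, Mir29a and Mir29c by 2.26-fold, Mir101a and Mir101b by 17.6-fold and Mir10a and Mir10b by 19.3-fold. Some genes enter several pairs. Genes with a whole arm in several hairpins lack the reads that matched several loci, which can widen the folds of their pairs. Which of these pairs hold such genes was not tested, so the median fold and the places of the miR-23 and miR-27 pairs may depend on them.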
